A study of Mus musculus with 8 samples.

Results

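Neurofilaments, ankyrins and spectrins were examined in nuclear RNA of GABAergic neurons, the inhibitory neurons of the cerebral cortex, in mice that carried a mutant receptor for thyroid hormone and in mice that did not. The group holds 10 genes, chosen by their GENCODE M21 symbols as genes of the axonal cytoskeleton and of the initial segment scaffold, out of 55450 genes in the tables. It consists of 4 neurofilament genes (Nefl, Nefm, Nefh and Ina), 3 ankyrin genes (Ank1, Ank2 and Ank3) and 3 spectrin beta chain genes (Sptb, Sptbn1 and Sptbn4). Control mice were Thra+/+ and mutant mice were Thra+/AMI, in which 1 allele of the thyroid hormone receptor gene Thra encodes a receptor that blocks normal receptor action. Per the series' design, both groups carried a Cre transgene active in GABAergic neurons and a fluorescent nuclear reporter that Cre switches on, and in mutants the same Cre switched on the Thra mutation. Nuclei were taken from the frozen cortex of single juvenile mice and sorted by fluorescence, so each library stands for 1 mouse and for all GABAergic classes together. The age in days and the name of the Cre line are not given in the sources used here.

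The comparison was made with 4 control and 3 mutant libraries. The table of the remaining mutant, labelled 10, held the same counts as that of mutant 7 in all 21975 genes with a count and a symbol of their own. It was therefore taken as a repeat of the same table, and the pair entered as 1 sample. Which of the mice these counts come from is unknown. Apart from the statement that single cortices were used, nothing says how the mice were related. Total counts per library ran from 10747169 to 13804734. Controls 1 and 4 stood apart in how reads fell on long genes: genes with a span over 100 kb took 30.7% of the counts in control 1, 45.8% in control 4 and 36.1% to 39.1% in the other 5 libraries. A set of 4 Y-linked genes had 4 reads in control 4, 3 reads in mutant 8 and between 5094 and 6644 in each of the others. Thra was at 114 ± 9.35 CPM (counts scaled to library size, SD, n = 4) in controls and 87.5 ± 9.39 CPM (SD, n = 3) in mutants. Its log2 fold change was -0.39 (edgeR adjusted p 0.0543, DESeq2 adjusted p 0.0284). In edgeR fits that left out 1 library the adjusted p ran from 0.0149 to 0.239. Counts per gene cannot tell its alleles apart, so these values do not check the labels.

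Neurofilaments are the intermediate filaments of neurons. The light, medium and heavy chains and alpha-internexin assemble together, fill the axon and set its caliber, and they are abundant in large, fast-conducting axons. Ankyrins are adaptors that tie membrane proteins to spectrin, and ankyrin-G organizes the axon initial segment, where action potentials start. Spectrins are long tetramers of alpha and beta chains that form a periodic lattice with actin under the axonal membrane. Parvalbumin neurons, a fast-spiking class of GABAergic neurons, are rich in neurofilaments.

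Of the 10 genes, Nefm, Nefh and Ank1 were lower in mutants, to 0.419, 0.608 and 0.601 of the control level. Ina had lower values in every mutant than in any control without passing the test over all genes. For the ankyrins Ank2 and Ank3 and the spectrin Sptbn1 the mean levels of the groups were within 1% of each other, and Sptb and Sptbn4 did not pass the test. Among the 9 genes that passed the filter on low counts, 3 were called at an adjusted p under 0.05, all lower, by the quasi-likelihood test of edgeR. Of all 16448 tested genes, 9.42% were called, with 4.78% lower and 4.63% higher. CPM ranges of the groups did not overlap for 4 of the 9, where 22.0% of all tested genes showed no overlap. The median log2 fold change was -0.28 over these 9 genes and -0.01 over all tested genes.

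**Figure D1:**
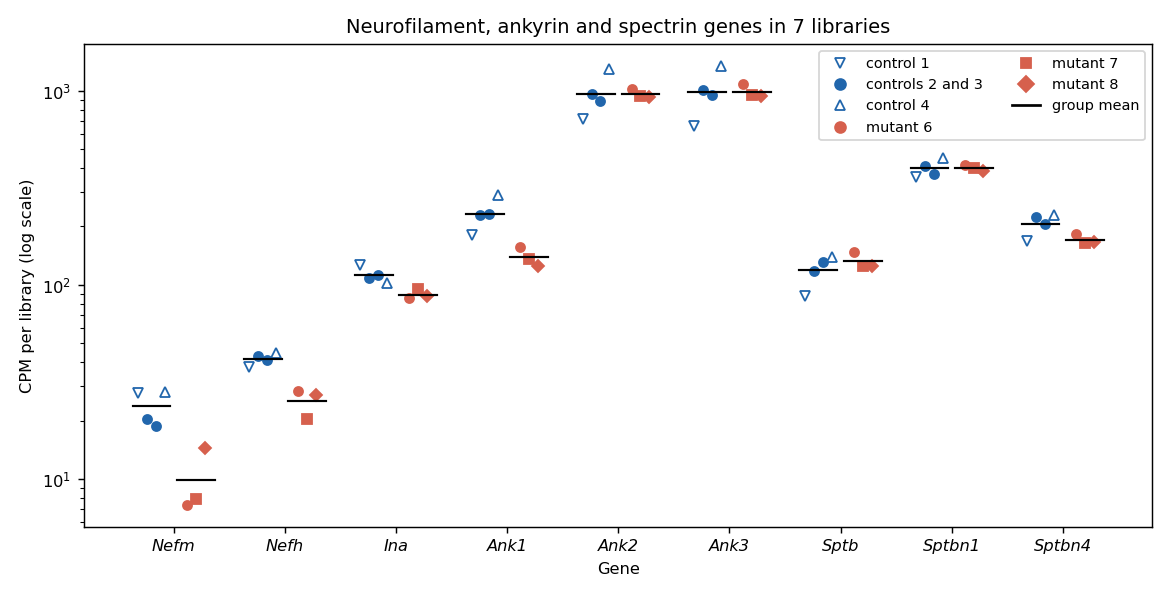
CPM of the 9 counted genes in each of the 4 control (blue) and 3 mutant (red) libraries on a log scale, with black lines at the group means and open triangles for controls 1 and 4. Control and mutant points are separate for Nefm, Nefh, Ina and Ank1, and for Ank2 and Ank3 controls 1 and 4 lie below and above all mutants.

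The light chain, the core subunit on which the other chains assemble, could not be measured. Nefl (ENSMUSG00000022055.7, GRCm38 chr14:68083863-68089095, plus strand) was listed at 0 in all 7 libraries. In the annotation its whole span lies within that of Nefm on the opposite strand. Every one of the 13127 genes with no base outside other genes was listed at 0 in all libraries, among them 1351 protein-coding genes, whereas 16.4% of the 20600 protein-coding genes with bases of their own were at 0. The 684 protein-coding genes of the first kind whose exons touch no exon of another gene were at 0 as well. A 0 for Nefl therefore gives no level, and no fold is given.

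The medium chain carries a long tail that projects from the filament. Nefm (ENSMUSG00000022054.11, chr14:68082590-68124846, minus strand) was at 27.8, 20.3, 18.7 and 28.0 CPM in controls 1 to 4 and at 7.35, 7.89 and 14.5 CPM in mutants 6, 7 and 8. All mutants lay below all controls, and mutant 8 was nearest to them. The means were 23.7 ± 4.89 CPM (SD, n = 4) and 9.91 ± 3.96 CPM (SD, n = 3), with 86 to 351 reads per library. On the log2 scale the fold change was -1.25, with SE 0.25 and an adjusted p of 0.00738 from edgeR. The call was lost without mutant 6 (log2 fold change -1.08, adjusted p 0.053) and without mutant 7 (-1.11, adjusted p 0.0555). Of the span of Nefm, 15.3% is shared with Nefl and Gm19216, and the span of 42.3 kb is longer than the 5460 bases that RefSeq gives, so its counts are uncertain.

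The heavy chain has the longest tail and enters filaments late in axon maturation. Nefh (ENSMUSG00000020396.8, chr11:4938754-4948064, minus strand), which shares no base with another gene, was at 37.9, 43.1, 40.9 and 44.4 CPM in controls and 28.2, 20.5 and 27.0 CPM in mutants. The lowest control stood above the highest mutant, and mutant 7 was the lowest library. Means were 41.6 ± 2.84 CPM (SD, n = 4) and 25.2 ± 4.17 CPM (SD, n = 3). The change on the log2 scale was -0.72, SE 0.14, with an adjusted p of 0.00625 from edgeR. Among the 10 genes Nefh was the one called in each of the 7 fits that left out 1 library, with log2 fold changes from -0.81 to -0.58.

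Alpha-internexin, encoded by Ina (ENSMUSG00000034336.3, chr19:47014698-47025327, plus strand), is a neurofilament subunit expressed early in neuronal development. It was at 126, 109, 113 and 102 CPM in controls and 85.2, 94.8 and 87.1 CPM in mutants, with no overlap. The means were 112 ± 10.0 CPM (SD, n = 4) and 89.0 ± 5.10 CPM (SD, n = 3). The log2 difference of -0.34, SE 0.11, did not pass, with an adjusted p of 0.0763 from edgeR. Its unadjusted 95% interval ran from 0.673 to 0.932 of the control level. With an offset from gene length it passed (-0.31, adjusted p 0.0184), as it did without control 4 (-0.38, adjusted p 0.0203). A stretch of 456 bases of Ina is shared with Nt5c2 on the opposite strand, which is 4.29% of its span.

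Windows of 250 bases before each listed start were read from RefSeq (GRCm38.p6), in which 5 of the 10 genes were matched: Ina, Ank2, Sptb, Sptbn1 and Sptbn4. Ina and Sptb had 1 window each, Sptbn1 had 2, and Ank2 and Sptbn4 had 4 each. Nefl, Nefm, Nefh, Ank1 and Ank3 were not matched. Since the altered protein is a thyroid hormone receptor, the windows were searched on both strands for AGGTCA (reverse TGACCT), the half-site such receptors are known to bind, and for GGGCGG (reverse CCGCCC), the GC box of many promoters, a motif that cannot overlap the first. Of 32851 windows of the same length, 14% held AGGTCA and 32.7% held GGGCGG, which are shares of windows and not of genes. The Ina window is shown as the neurofilament promoter at hand. A Sptbn1 and a Sptbn4 window are shown as those of the matched genes in which the half-site was found. Both lie inside the annotated span of their gene, away from its 5′ end. Capitals mark either motif, and each window is written 5′ to 3′ on the gene's strand.
Ina (chr19:47014431-47014680, plus strand): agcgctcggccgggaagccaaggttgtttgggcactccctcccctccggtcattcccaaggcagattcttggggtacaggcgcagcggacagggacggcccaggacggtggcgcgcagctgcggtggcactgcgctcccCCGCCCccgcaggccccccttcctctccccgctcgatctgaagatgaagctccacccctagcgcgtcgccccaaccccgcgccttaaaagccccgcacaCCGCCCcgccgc
Sptbn1, first of 2 listed starts (chr11:30219773-30220022, minus strand): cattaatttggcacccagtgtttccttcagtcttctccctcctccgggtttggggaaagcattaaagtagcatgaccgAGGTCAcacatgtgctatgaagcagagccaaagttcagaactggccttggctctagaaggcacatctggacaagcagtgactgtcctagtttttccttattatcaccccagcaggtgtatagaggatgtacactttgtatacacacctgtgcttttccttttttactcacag
Sptbn4, last of 4 listed starts (chr7:27394507-27394756, minus strand): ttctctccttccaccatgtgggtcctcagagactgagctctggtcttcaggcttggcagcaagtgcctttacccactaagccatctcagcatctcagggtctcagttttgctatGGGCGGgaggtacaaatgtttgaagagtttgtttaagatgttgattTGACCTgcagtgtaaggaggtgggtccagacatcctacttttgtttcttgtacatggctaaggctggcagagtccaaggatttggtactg
The Ina window held no AGGTCA in either direction and CCGCCC at 111 and 12 bases before the start. The Sptbn1 window held AGGTCA beginning 172 bases before its start. The Sptbn4 window held TGACCT beginning 90 bases and GGGCGG 136 bases before its start. The other windows of Ank2, Sptb, Sptbn1 and Sptbn4 held no AGGTCA, and a match or its absence describes these letters in this window and no more.

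Of the ankyrins, Ank1 alone was called. Ankyrin-R, its product, is known from the red cell membrane and in cortex from parvalbumin neurons. Ank1 (ENSMUSG00000031543.18, chr8:22974844-23150497, plus strand) was at 179.7, 228, 232 and 289.8 CPM in controls 1 to 4 and at 157, 136 and 126 CPM in mutants 6, 7 and 8. The groups did not overlap, and the controls were spread more widely than the mutants, with control 1 lowest and control 4 highest. Means were 232 ± 45.0 CPM (SD, n = 4) and 139.7 ± 16.2 CPM (SD, n = 3). On the log2 scale this was -0.73, SE 0.16, at an adjusted p of 0.0117 from edgeR. The call was lost without mutant 7 (-0.71, adjusted p 0.0781) or mutant 8 (-0.66, adjusted p 0.0871). With an offset from gene length the SE was 0.09 and the adjusted p 2.2e-05.

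Ank2, which encodes the widespread axonal ankyrin-B (ENSMUSG00000032826.17, chr3:126921612-127499350, minus strand), was at 713, 961, 891 and 1295 CPM in controls and 1017, 941 and 932 CPM in mutants. Every mutant lay within the range of the controls. The log2 fold change was -0.00 (SE 0.20, edgeR adjusted p 0.996), with a 95% interval from 0.739 to 1.35 of the control level. Ank3, the gene of ankyrin-G (ENSMUSG00000069601.14, chr10:69398773-70027438, plus strand), gave the same picture, at 657, 1012, 948 and 1343 CPM in controls and 1085, 951 and 937 CPM in mutants. Its log2 fold change was 0.00 (SE 0.22, edgeR adjusted p 0.999), with an interval from 0.720 to 1.39. The lower bounds of both intervals lie above the fold of 0.601 measured for Ank1. The 95% interval of Ank1 itself ran from 0.474 to 0.763 and overlaps both, so the intervals do not separate the 3 genes. The upper bounds for Ank2 and Ank3 allow a rise of up to 1.35 and 1.39 times.

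None of the 3 spectrin beta chains was called in edgeR's test or in DESeq2, and 0 had an unadjusted p under 0.05. Sptb, the chain named beta-I and known from red cells and some neurons (ENSMUSG00000021061.15, chr12:76580488-76710547, minus strand), was at 87.3, 117, 131 and 139 CPM in controls and 148, 125 and 125 CPM in mutants. Control 1 was the lowest library and mutant 6 the highest, and the other libraries overlapped. The log2 fold change was 0.16 (SE 0.15, edgeR adjusted p 0.598), with a 95% interval from 0.891 to 1.40 of the control level. Sptbn1, the gene of beta-II spectrin, the main beta chain of the lattice along the axon (ENSMUSG00000020315.18, chr11:30099395-30268175, minus strand), was at 359, 410.3, 374 and 451 CPM in controls and 417, 399 and 388 CPM in mutants. Here too each mutant fell inside the control range, and the log2 difference was 0.01, SE 0.13, at an adjusted p of 0.981 from edgeR, with an interval from 0.825 to 1.23.

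Sptbn4 encodes beta-IV spectrin, the chain of initial segments and nodes of Ranvier (ENSMUSG00000011751.16, chr7:27356383-27447686, minus strand). It was at 168, 225, 205 and 229 CPM in controls and 182, 164 and 166 CPM in mutants. Control 1 lay among the mutants, and the other controls lay above all of them. The log2 fold change was -0.28 (SE 0.13, edgeR adjusted p 0.227), with a 95% interval from 0.679 to 1.00 of the control level. It passed without control 1 (-0.36, adjusted p 0.0386) and with an offset from gene length (-0.28, adjusted p 0.0332).

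The difference between controls 1 and 4 was largest for the longest genes, Ank3 and Ank2. Among the other genes it did not follow the order of length. The log2 CPM of control 1 minus that of control 4 was -1.03 for Ank3 and -0.86 for Ank2, with spans of 629 and 578 kb. It was -0.69 for Ank1, -0.67 for Sptb, -0.44 for Sptbn4 and -0.33 for Sptbn1, with spans of 91.3 to 176 kb. For the short genes Nefh, Nefm and Ina it was -0.23, -0.01 and 0.30. After a trend with gene span was taken out of each library these differences ran from -0.52 for Nefh to 0.32 for Sptbn1, and that of Ank3 was 0.09. For Nefh the difference was larger in size than before.

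**Figure D2:**
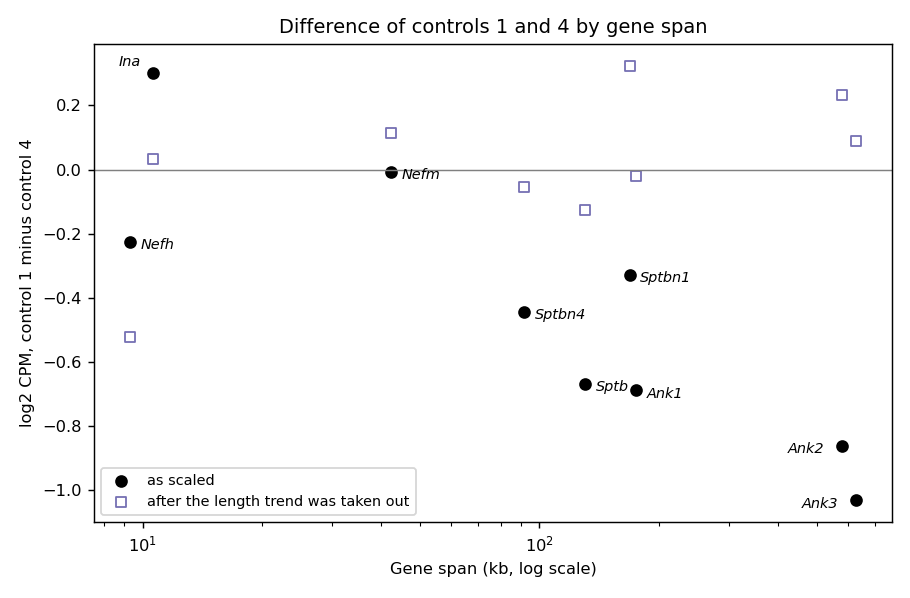
Log2 CPM of control 1 minus control 4 against the gene span in kb (log scale) for the 9 counted genes, as scaled (black) and after the length trend was taken out (open squares). The black points run from 0.30 for Ina to -1.03 for Ank3, lowest for the longest genes but not in strict order of span. The squares lie between -0.52 and 0.32 with no fall toward the longest genes.

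With the length trend as an offset in the model, the SE of the log2 fold change was 0.08 for both Ank2 and Ank3, at estimates of -0.02 and -0.00, and 0.14 for Nefh as before. In that fit 5 of the 9 genes were called, Nefm, Nefh, Ina, Ank1 and Sptbn4, all lower, where 16.7% of all tested genes were called. The same 5 were called without controls 1 and 4, again beside 16.7% of all genes tested there. Directions of all 5 were the same in the 3 fits.

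**Figure D3:**
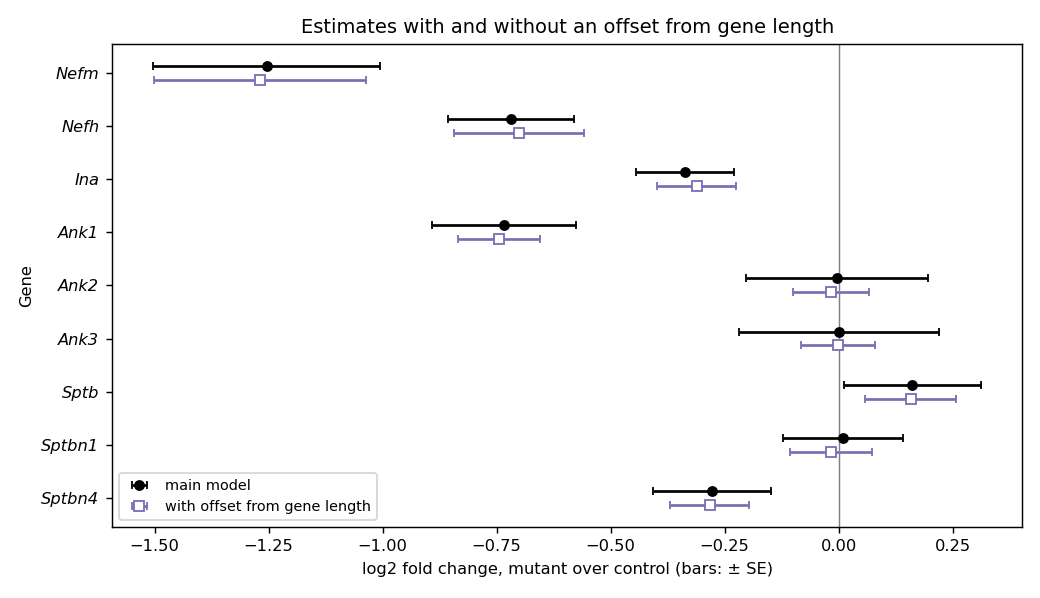
Log2 fold change of mutant over control with its SE for the 9 counted genes, from the main model (black) and with the offset from gene length (open squares). Estimates of the pair differ little, from -1.27 for Nefm to 0.16 for Sptb with the offset, and the bars of Ank1, Ank2 and Ank3 are shorter with it.

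Levels were compared between genes per kb of the bases that belong to the gene alone, since reads were counted over introns too. In controls Ina was highest at 11.0 ± 0.987 CPM per kb, followed by Nefh at 4.47 ± 0.305. Sptbn1 (2.40 ± 0.247) and Sptbn4 (2.32 ± 0.311) came next, with overlapping SDs. The SDs of Ank2 (1.80 ± 0.454), Ank3 (1.58 ± 0.449) and Ank1 (1.41 ± 0.274) also overlapped. Sptb (0.914 ± 0.174) and Nefm (0.662 ± 0.136) were the lowest (SD, n = 4). These SDs are between libraries, and levels per kb were not compared within each library, so overlap does not show equal levels. The bases include introns, and the share of exons differs between genes. Exons hold 3240 of the 10630 bases of Ina and 3994 of 9311 of Nefh, but 35004 of 577739 of Ank2. The order is therefore one of reads per base and not of transcript levels. In mutants the order was the same except that Sptb (1.02 ± 0.103) stood above Ank1 (0.849 ± 0.0984; SD, n = 3). Nefh was at 2.71 ± 0.448 and Nefm at 0.277 ± 0.111 CPM per kb in mutants, and the place of Nefm depends on the long span the annotation gives it.

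Whether paralogs changed unequally was examined with log2 ratios within each library, which do not depend on library scaling. The ratio of Ank1 to Ank3 was -1.87, -2.15, -2.03 and -2.21 in controls and -2.78, -2.80 and -2.90 in mutants. These ranges are far apart relative to the spread within each group. The difference of means was -0.76 (two-sided exact permutation test over 35 splits, p = 0.0286, which no split of 7 libraries can go below), and 0.114 after adjustment over 6 ratios. The ratio of Sptbn4 to Sptbn1 was -0.95 ± 0.11 in controls (SD, n = 4) and -1.23 ± 0.05 in mutants (SD, n = 3), also without overlap (exact permutation p = 0.0571, adjusted 0.114). Ank2 to Ank3 (-0.02 ± 0.10 and -0.04 ± 0.05, exact permutation p = 0.914, adjusted 0.914) and Sptb to Sptbn1 (-1.76 ± 0.22 and -1.60 ± 0.10, exact permutation p = 0.257, adjusted 0.309) overlapped.

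For the neurofilaments, ratios to Nefl could not be formed, and ratios to Nefm were chosen after that was seen. Nefh to Nefm was 0.83 ± 0.33 in controls and 1.39 ± 0.51 in mutants (exact permutation p = 0.171, adjusted 0.257). Ina to Nefm was 2.26 ± 0.31 and 3.21 ± 0.55 (exact permutation p = 0.0571, adjusted 0.114), and in both ratios mutant 8 lay within the range of the controls. None of the 6 ratios passed after adjustment.

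**Figure D4:**
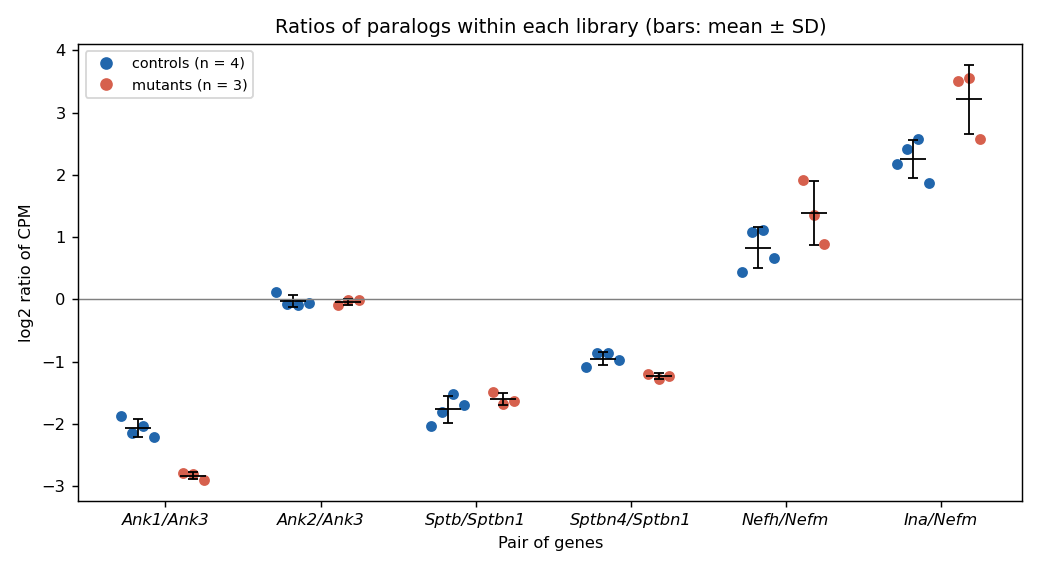
Log2 ratio of CPM for 6 pairs of paralogs in each control (blue, n = 4) and mutant (red, n = 3) library, with the mean and SD as black bars. The groups are apart for Ank1 to Ank3 and for Sptbn4 to Sptbn1 and overlap for the other 4 pairs.

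Genes that work with these proteins were taken from 4 lists of 58 genes, of which 54 were tested. Called genes numbered 7, with 5 lower and 2 higher (13.0% of those tested, beside 9.42% of all genes), and the median log2 fold change was -0.01. None of the 8 filament partners, among them Prph, Vim, Nes, Dst, Macf1, Plec and Trim2, was called in edgeR's test, and 1 had an unadjusted p under 0.05. DESeq2 called none of them either. Vim encodes the filament of glia and precursors, and Dst and Macf1 encode linkers between filaments, actin and microtubules.

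Among partners in the membrane skeleton 2 of 12 tested genes were called, both of the band 4.1 family, which joins spectrin to actin and to membrane proteins. Epb41 was at 101, 147, 145 and 186 CPM in controls and 55.5, 46.8 and 46.6 CPM in mutants, so that every control was well above every mutant. Its log2 fold change was -1.54 (SE 0.18, edgeR adjusted p 0.000242). Epb41l2 went from 137 ± 8.10 CPM (SD, n = 4) to 87.8 ± 6.92 CPM (SD, n = 3), or -0.65 on the log2 scale with SE 0.11 and an adjusted p of 0.00249 from edgeR. Sptan1, the alpha chain of neuronal spectrin, was not called (-0.12, adjusted p 0.708), and neither were the 3 adducins or the 2 other band 4.1 genes. Sptbn5 did not pass the filter on low counts, nor did Schip1 among the genes of the initial segment.

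Of 19 tested partners at the initial segment and node, 2 were higher and 2 lower. The adhesion molecules L1cam and Chl1, which bind ankyrins, were higher in mutants. L1cam rose from 102 ± 4.84 CPM in controls to 186 ± 13.8 in mutants (0.86 on the log2 scale, SE 0.10, edgeR adjusted p 0.000287), and Chl1 from 208 ± 17.9 to 373 ± 27.7 CPM (0.85, SE 0.12, edgeR adjusted p 0.00107). Cntnap1, which encodes the paranodal adhesion protein Caspr, fell from 91.4 ± 9.31 to 58.8 ± 13.3 CPM (-0.64, SE 0.15, edgeR adjusted p 0.0176). That call was lost without control 3 (-0.63, adjusted p 0.0538), mutant 7 (-0.52, adjusted p 0.122) or mutant 8 (-0.56, adjusted p 0.118), and other genes overlap 16.2% of its span. The calls of Scn1a and Scn8a, the genes of pore subunits of sodium channels, depended on the fit. In edgeR's main model Scn1a was at -0.45 (adjusted p 0.0616) and Scn8a at -0.43 (adjusted p 0.0856), whereas DESeq2 called both lower (adjusted p 0.00344 and 0.0203), as did edgeR with the length offset (adjusted p 0.00291 and 0.00267). DESeq2 thus called 6 of the 19 genes where edgeR called 4. Nfasc and Nrcam, close relatives of L1cam, were not called in edgeR's main model (-0.26 and 0.30, adjusted p 0.401 and 0.282) or in DESeq2 (adjusted p 0.392 and 0.245), and passed in edgeR with the length offset (-0.27 and 0.29, adjusted p 0.0378 and 0.0298).

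Of 15 tested genes of axonal microtubules and motors 1 was called. Map1a, a microtubule-associated protein of mature neurons, fell from 120.6 ± 8.00 to 74.9 ± 3.44 CPM (-0.69 on the log2 scale, SE 0.10, edgeR adjusted p 0.00137), with 12.1% of its span shared. Its relative Map1b was not called (0.20, adjusted p 0.530). The kinesin genes Kif5a, Kif5b and Kif5c had log2 fold changes of 0.05, 0.10 and -0.10 and were not called, and 35.9% of the Kif5b span is shared. Tubb3, like Nefl, was listed at 0 and has no base of its own.

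**Figure D5:**
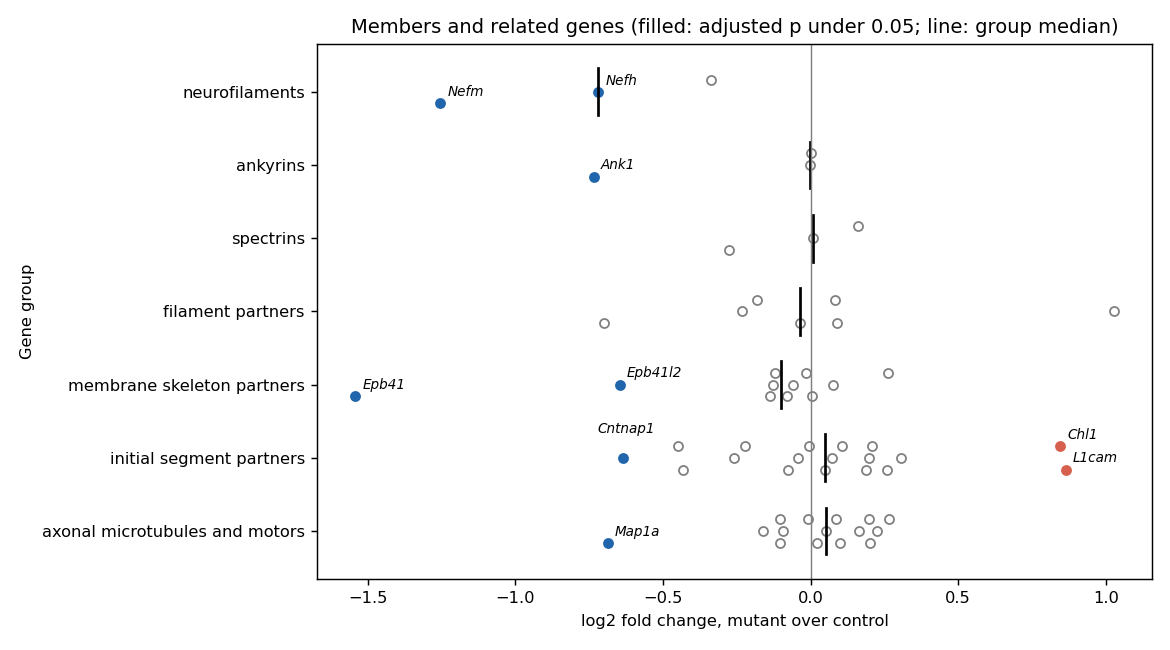
Log2 fold change of mutant over control for genes of the 3 groups and 4 lists of related genes that are reported here, with filled points for genes at an adjusted p under 0.05 (blue lower, red higher) and a black line at the median of all tested genes of each group. The median is -0.72 for the neurofilaments and between -0.10 and 0.05 for every other group shown.

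Nefh had the smallest p of the 10 genes, and the genes with the most similar pattern over the 7 libraries were sought among 11796 tested genes whose mean reached 5 CPM. The measure was the root mean square difference of log2 CPM after each gene was centred. The 5 nearest were Syt12 (0.0616), Cep97 (0.0699), Abca7 (0.0797), Rel (0.0851) and Acss2 (0.0908), with log2 fold changes from -0.84 to -0.70. Each was called in edgeR's test (adjusted p 0.0088, 0.0144, 0.00487, 0.0133 and 0.00104). The calls of Syt12, Cep97 and Rel were lost without mutant 7 (adjusted p 0.058, 0.0827 and 0.0832), and that of Rel also without mutant 6 (0.0512). Of the other 8 counted genes of the group Ank1 was nearest to Nefh, at 0.187, and Sptb was farthest, at 0.483. This likeness includes the difference between the groups.

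In sorted nuclei of several classes, fewer nuclei of a class and less RNA per nucleus cannot be told apart, and markers of the classes moved with the genotype. Of 11 tested parvalbumin neuron markers 5 were called lower and 1 higher, with Pvalb at 35.7 to 47.8 CPM in controls and 1.29 to 2.58 CPM in mutants. The summed level of this list was 4610.3 to 7301 CPM in controls and 5762 to 7016 CPM in mutants, and Erbb4 and Kcnc2, long genes that were not called, made up 77.1% to 89.5% of it. Without that pair, a choice made after seeing the data, the sums were 1058 to 1258 CPM in controls and 660.0 to 772 CPM in mutants. These did not overlap, but both genes left out had log2 fold changes above 0 (Erbb4 0.26, Kcnc2 0.32). The largest gene left was Kcnc1, itself called lower, with means of 518 CPM in controls and 195 CPM in mutants. The reduced sum therefore adds nothing to the calls. Of 8 somatostatin neuron markers 3 were called higher and 1 lower, and their summed level was 919 to 1089 CPM in controls and 1469 to 1784 CPM in mutants. This sum includes the 3 genes called higher, among them Sst (means of 281 CPM in controls and 502 CPM in mutants) and Calb1 (80.1 and 246 CPM). It is therefore no evidence apart from those calls. Of 7 tested genes listed as general GABAergic markers 0 were called in edgeR's test and 0 in DESeq2. Lhx6 had an unadjusted p under 0.05 (log2 fold change 0.23, edgeR p 0.0462). The sum was 3785 to 5419 CPM in controls and 3749.6 to 4708 CPM in mutants. It varied with the long gene Adarb2 (span 566 kb), at 1023 to 2926 CPM in controls and 1332 to 1970 CPM in mutants. The part of these classes in the values of Nefm, Nefh and Ank1 was not tested.

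Markers of other cells had lower summed levels than the general GABAergic list, and in DESeq2 too 0 glutamatergic, endothelial or erythroid genes were called. Glutamatergic markers summed to 80.4 to 148 CPM in controls and 85.9 to 139 CPM in mutants, with 0 of 8 called and none at an unadjusted p under 0.05. Oligodendrocyte markers summed to 164 to 203 and 183 to 219 CPM (1 of 8 called, higher), and endothelial markers to 57.3 to 132 and 56.4 to 87.7 CPM (0 of 8 called, none at an unadjusted p under 0.05). The sum of the astrocyte markers was lower in all mutants, 358 to 517 and 300.4 to 343 CPM (1 of 7 called, Slc4a4, lower). Without Slc4a4, left out after seeing the data, it was 150.1 to 269 CPM in controls and 156 to 186 CPM in mutants, which overlap. Microglial markers summed to 16.3 to 22.2 and 21.9 to 26.0 CPM (0 of 7 called in edgeR, 2 at an unadjusted p under 0.05 and 1 called in DESeq2). Since Ank1 and Sptb are also red cell genes, erythroid markers were summed, at 20.1 to 42.5 CPM in controls and 12.3 to 23.5 CPM in mutants (0 of 4 tested called, none at an unadjusted p under 0.05). Hbb-bs, a beta-globin gene, had the highest level of that list, at 13.6 to 28.6 CPM in controls and 8.72 to 14.5 CPM in mutants. Hba-a1, an alpha-globin gene, was at 1.52 to 3.73 CPM in controls and 1.10 to 2.03 CPM in mutants, and Slc4a1 and Klf1 did not pass the filter. Dlx1, Cox6a2, Gfap, P2ry12 and Alas2 were listed at 0 and have no base of their own. Log2 fold changes were below 0 for 6 of 7 tested astrocyte genes, 8 of 8 endothelial and 4 of 4 tested erythroid genes. Their medians were -0.33, -0.34 and -0.49, beside -0.01 over all tested genes. Among glutamatergic, oligodendrocyte and microglial genes 3 of 8, 2 of 8 and 3 of 7 were below 0. The part of these cells in the results was not tested.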

How the data were processed

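Nuclear RNA of sorted fluorescent nuclei was amplified with the SMART-Seq v4 kit, made into Nextera XT libraries and read on a NextSeq 500, per the labels' protocols. The authors deposited raw read counts per gene, 1 table per library. Bowtie2 2.5.3 and the builds mm10 and GRCm38 are named in the submitters' processing notes. The counting program, the annotation and the use of strand are not given in the sources used here. The IDs matched GENCODE M21. Genes that lie wholly inside others had 0 counts, so levels per kb use only a gene's own bases. Every row counted names a gene.

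Groups follow the genotype labels. In 4 of 8 samples the library number in the label differs from that in the table's name, and GEO's assignment was used. Controls are numbered 1 to 4 and mutants 6, 7, 8 and 10, as in the titles. The p-values weigh the difference between the groups against the spread between libraries, each taken as 1 mouse. In edgeR that spread is estimated with information shared across genes.

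Counts were filtered with filterByExpr (minimum count 10, minimum total 15), scaled by TMM and tested with edgeR 4.0.16 (glmQLFit with robust estimation, glmQLFTest, Benjamini-Hochberg adjustment over all tested genes) in R 4.3.3. Alternatives used DESeq2 1.42.0, limma 3.58.1, sva 3.50.0, other filters and thresholds, left-out libraries, and an offset from a smooth trend of log2 counts with gene span. The scripts were tested on simulated data. Log2 ratios used a prior count of 2. At the lowest total, 1 CPM is 10.7 reads.

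The members, gene lists and markers were chosen with earlier results of these data known. Genes named with values are the 10 members, each called gene of the 4 related lists, the 5 genes nearest in pattern to the member with the smallest p, and Thra and Pvalb. Other genes named were chosen after their values were seen. A few genes of the lists enter the counts and medians but are not reported here by name. Of the planned ratios, 3 used Nefl and could not be computed.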

Additional observations from a re-analysis of the deposited data

How the results depend on the processing

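Of all tested genes 1549 were called, against 3147 with limma-voom and quality weights, 2753 with the length offset, 3725 with 1 surrogate variable, 2778 without controls 1 and 4, 690 at an adjusted p under 0.01 and 641 at an absolute log2 fold change over 1. Leaving out 1 library gave 734 to 2347, with 1016 without control 3, 2347 without control 4, 766 without mutant 6, 734 without mutant 7 and 816 without mutant 8. The 3 called members became 5 with limma-voom, the length offset, 1 surrogate variable or without controls 1 and 4 (Ina and Sptbn4 were added in each), 4 with DESeq2 (Ina was added), and 1 (Nefm) at an absolute log2 fold change over 1. Leaving out 1 library gave 1 to 4 members, with 1 (Nefh) without mutant 7. The 7 called related genes became 11 with limma-voom, 11 with the length offset, 16 with 1 surrogate variable and 1 (Epb41) at an absolute log2 fold change over 1. The cause of these shifts was not tested. The log2 ratio of Ank1 to Ank3 differed by -0.81 to -0.70 without 1 library and by -0.74 without controls 1 and 4 (exact permutation p 0.0667 to 0.1, the smallest that fewer samples allow). Ina to Nefm gave 0.97 with a prior count of 0.5 and 0.99 with the length offset (exact permutation p 0.0286 in both, unadjusted). No direction of a called member was reversed in these alternatives. No paired analysis was made because nothing in the sources used here records pairs of control and mutant mice. Counts of 86 to 185 reads limit the precision of Nefm in mutants.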
